A study of Homo sapiens with 3 samples.

Results

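ISG15 and the enzymes that attach it to proteins and remove it were examined in RWPE1 cells, an established benign human prostate epithelial line. The members were chosen by name: the modifier ISG15, the E1 activating enzyme UBA7 (also written UBE1L), the E2 conjugating enzyme UBE2L6, the ligases HERC5 and HERC6, and the protease USP18. All probes that the platform annotation gives to these 6 genes were taken. This found 6 probes for 4 of the 6 genes, among 24526 probes that name 16922 genes. ISG15, UBA7 and HERC5 have 1 probe each and UBE2L6 has 3. HERC6 and USP18 are named for 0 probes here, so they are not analysed, and no value below speaks of the protease. The members were chosen with earlier results of these data known, so their differences are given as a description.

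The 3 samples were cells infected with a retrovirus for MYC overexpression, cells infected with one for a constitutively active PI3K mutant (E545K), and cells carrying the empty vector, PMN. Every sample shared the RWPE1 background, a retroviral infection, a serum-free keratinocyte medium with pituitary extract and EGF, and no treatment before harvest. Each group had 1 Illumina array: the differences lack replicates, and no p-value can be given. The labels do not say whether the lines were pooled or clonal.

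ISG15 is a ubiquitin-like protein that type I interferon induces strongly in epithelial cells. It is joined to target proteins by a cascade like that of ubiquitin, in which UBA7 activates it, UBE2L6 carries it and HERC5, the main human ligase, attaches it to newly made proteins. HERC6 is the main ligase in mouse. USP18 removes ISG15 from its targets and also dampens signalling at the type I interferon receptor. Transcription of these genes is driven largely by the factor complex ISGF3, which contains IRF9 and binds an element with repeated GAAA half-sites.

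The DNA upstream of ISG15 and HERC5 is shown because these genes had the lowest differences among the members above background on every array, and because it holds that kind of repeat. Sequences are the 250 bases before the gene start in RefSeq (GRCh38.p14), for 4 of the 6 genes: ISG15, HERC5, HERC6 and UBE2L6. The letters GAAANNGAAA were searched on both strands (TTTCNNTTTC on the other), and capitals mark the matches, which overlap where runs are longer than the motif.
ISG15, chr1:1013247-1013496, plus strand: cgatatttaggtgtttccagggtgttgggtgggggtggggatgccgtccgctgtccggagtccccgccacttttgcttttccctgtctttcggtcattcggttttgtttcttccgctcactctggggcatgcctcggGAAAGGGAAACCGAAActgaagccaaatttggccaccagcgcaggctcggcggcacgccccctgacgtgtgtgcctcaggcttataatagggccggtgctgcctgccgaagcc
HERC5, chr4:88456869-88457118, plus strand: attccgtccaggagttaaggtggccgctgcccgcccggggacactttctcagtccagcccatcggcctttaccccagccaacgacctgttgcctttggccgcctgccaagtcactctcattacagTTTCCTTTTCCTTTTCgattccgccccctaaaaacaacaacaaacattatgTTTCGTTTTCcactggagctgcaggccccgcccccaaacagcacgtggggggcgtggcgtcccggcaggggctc

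ISG15 held 2 overlapping matches, which together make 1 run of 16 bases from 113 to 98 bases upstream of the gene start. HERC5 held 3 matches, of which 2 overlap in a run from 125 to 110 bases upstream and the other lies 74 to 65 bases upstream. The windows of UBE2L6 (2 starts) and HERC6 held 0 matches, which says only that these letters are not in those windows. Of all 27305 genes with an upstream window, 3.71% held the motif in at least 1 window. Among the other interferon-stimulated genes in the list used below, it was found in 18 of 24. Genes at least 2-fold lower on the array labelled MYC than on the vector array held it in 15.3% (46 of 300), against 2.79% (183 of 6552) of the other genes compared, counting genes with a window. For the PI3K array the shares were 15.0% (38 of 253) and 2.88% (190 of 6592). The lower genes include ISG15, HERC5 and most of that interferon list, so these shares are not separate from the choice of genes. Whether the motif has a part in the differences was not tested. A match is a description of the letters and not a binding site.

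Signals below are on the vector array's scale. The other arrays were placed on it with the authors' deposited log2 values, whose difference between the array labelled MYC and the vector array equals the log2 ratio of signals scaled to the 75th percentile. The PI3K column was assumed to be made alike. On the array labelled MYC and the vector array, probes with a detection p-value under 0.01 counted as above background. The scanner table holds 1 more pair of signal and detection columns under a heading that names no sample, and they were not used for the PI3K array. A scaled signal of at least 283.7 counted as above background there, the higher of the cut-offs of the other arrays (the vector array's was 233.3). Above background on the arrays labelled MYC, PI3K and vector were 7391, 7433 and 7900 genes of 8270 measured. Before scaling, the array labelled MYC had a median raw signal of 128.7, against 158.9 for the vector array.

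The introduced gene goes against 1 label. The only MYC probe read 5229 on the array labelled MYC, 3520 on the PI3K array and 6229 on the vector array, a log2 difference of -0.25 from the vector for the array labelled MYC. The position of this probe relative to the introduced coding sequence is unknown here, so the text writes "labelled MYC" and each direction rests on that label. PIK3CA is named for 0 probes. Of the basal markers chosen for this check, KRT5, KRT14 and ITGA6 were above background on every array. KRT15 was above background on the PI3K and vector arrays but not on the array labelled MYC, and TP63 is named for 0 probes. Of the pan-epithelial markers (CDH1, EPCAM, KRT8, KRT18), 3 or 4 were above background on each array. None of the luminal prostate, endothelial or fibroblast markers with probes was above background. Of the 5 leukocyte markers on the array only CD14 was above background, on the vector array alone, and the summed signal of this list was 722 on the array labelled MYC, 722 on the PI3K array and 767 on the vector array.

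All 4 genes with probes read lower on both oncogene arrays than on the vector array. ISG15, UBE2L6 and HERC5 were lowest on the array labelled MYC, with the PI3K array between, and UBA7 was below background on both oncogene arrays. By their brightest probes, all 4 of 4 were at least 2-fold lower on the array labelled MYC, where 4.77% of all 8147 genes compared were. On the PI3K array all 4 were too, against 4.04% of 8136 genes. With dim genes taken at their bound, 3 of 4 passed in each comparison, beside 3.57% and 3.18% of all genes. The values that chose the members are those same differences, so nothing is read from these counts. The members' median log2 difference was -3.40 with the array labelled MYC and -1.53 with PI3K, and the medians over all genes compared were 0.07 and 0.05. Both comparisons use the same vector array and are not independent.

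**Figure D1:**
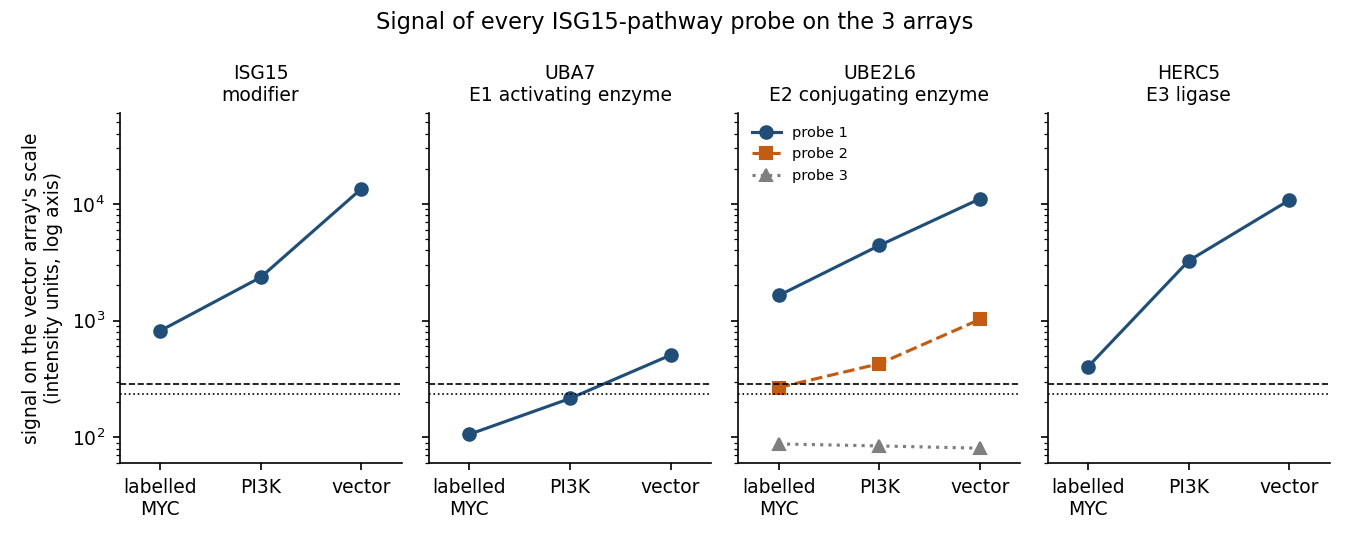
Signal of each probe (vertical, intensity units on the vector array's scale, log axis) on the arrays labelled MYC, PI3K and vector, 1 point per array, with lines joining points of 1 probe. The dashed line is the background cut-off used for the array labelled MYC and the PI3K array (283.7) and the dotted line that of the vector array (233.3). Every probe above background on the vector array steps up in the same order, and UBA7 is under both lines on the oncogene arrays.

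The modifier itself was far lower on both oncogene arrays. ISG15 read 814 on the array labelled MYC, 2345 on the PI3K array and 13438 on the vector array. The array labelled MYC therefore kept 6.06% of the vector signal and the PI3K array 17.4%. The log2 differences from the vector were -4.04 (16.5-fold lower) with the array labelled MYC and -2.52 (5.73-fold lower) with PI3K. All 3 values were above background, so these folds are measured on both sides. With dim genes at their bound, 11 of 8146 other genes were further down than ISG15 on the array labelled MYC and 21 of 8135 on the PI3K array. A dim gene can lie further down than its bound, so these are the lowest counts possible.

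The only error available is technical. It was taken from 719 genes that had at least 2 probes detected on every array. The log2 differences of a gene's 2 brightest probes were subtracted from each other, and the SD of the result, scaled to a single probe by the square root of 2, came to 0.20 with the array labelled MYC and the vector, and 0.21 with PI3K and the vector. Between the oncogene arrays it was 0.18. ISG15's differences from the vector were 19.8 and 12.1 of these SDs. This error leaves out the spread between cultures, RNA preparations and hybridisations, which these samples do not give. In bulk RNA, fewer cells that express a gene and less RNA per cell cannot be told apart.

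The E1 enzyme was above background on the vector array only. UBA7, which forms the thioester with ISG15 that starts the cascade, read 106 on the array labelled MYC, 215 on the PI3K array and 506 on the vector array. Only the vector value was above background: the detection p-value was 0.678 on the array labelled MYC, and the PI3K value fell under both cut-offs. UBA7 was therefore at least 1.78-fold lower on each oncogene array, which alone does not reach 2-fold. The measured log2 differences were -2.25 with the array labelled MYC and -1.24 with PI3K, and with a pseudocount of 100 the second was -0.94, short of 2-fold.

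The E2 enzyme is the member with more than 1 probe. UBE2L6, which takes ISG15 from UBA7, read 1640 on the array labelled MYC, 4403 on the PI3K array and 11054 on the vector array by its brightest probe, all above background. The log2 differences from the vector were -2.75 (6.74-fold lower) and -1.33 (2.51-fold lower). A dimmer probe to the same transcript (NM_004223) read 267, 427 and 1024 in the same order of arrays, and was not above background on the array labelled MYC (detection p-value 0.0166). It gave -1.26 for the PI3K array, and for the array labelled MYC at least 3.61-fold lower, with a measured difference of -1.94.

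The third UBE2L6 probe is annotated to another transcript, NM_198183. It read 87.7 on the array labelled MYC, 84.3 on the PI3K array and 80.6 on the vector array, which is not above background on any of them. It therefore gives no fold. The 2 probes to NM_004223 ran in the same order over the arrays. For the PI3K array they differed by less than the technical SD of 0.21. For the array labelled MYC the dimmer probe has only a bound, so whether the sizes differ is not settled.

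Of the 3 members above background on every array, the ligase had the lowest difference on the array labelled MYC but not on the PI3K array. HERC5, which binds polyribosomes and transfers ISG15 to new proteins, read 403 on the array labelled MYC, 3259 on the PI3K array and 10778 on the vector array. All 3 were above background, so the array labelled MYC kept 3.74% of the vector signal and the PI3K array 30.2%. The log2 differences were -4.74 (26.7-fold lower) and -1.73 (3.31-fold lower). At least 5 other genes were further down than HERC5 on the array labelled MYC and at least 58 on the PI3K array. A further 752 and 691 genes were too dim to place, so its rank is not settled.

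The order of ISG15 and HERC5 therefore differed between the oncogene arrays. HERC5's log2 difference minus that of ISG15 was -0.70 on the array labelled MYC, where HERC5 was further down, and 0.79 on the PI3K array, where ISG15 was. The SD between 2 probes of the same gene in such a difference was 0.29 in both comparisons. By the processing used here each gap was over 2 of these SDs. Of the 8 alternative ways of processing that give these values, only those with quantile normalisation or a pseudocount of 100 could move the gap. The others leave it as it was, since each gene has 1 probe, above background on every array, and a shift of a whole array cancels. Where it could move, the gap was between -0.66 and -0.55 on the array labelled MYC and between 0.77 and 0.85 with PI3K. The smallest gap on the array labelled MYC, -0.55 with a pseudocount of 100, was under 2 of the SDs given above. UBA7's place in the order is not settled on either array, since it was below background on both.

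**Figure D2:**
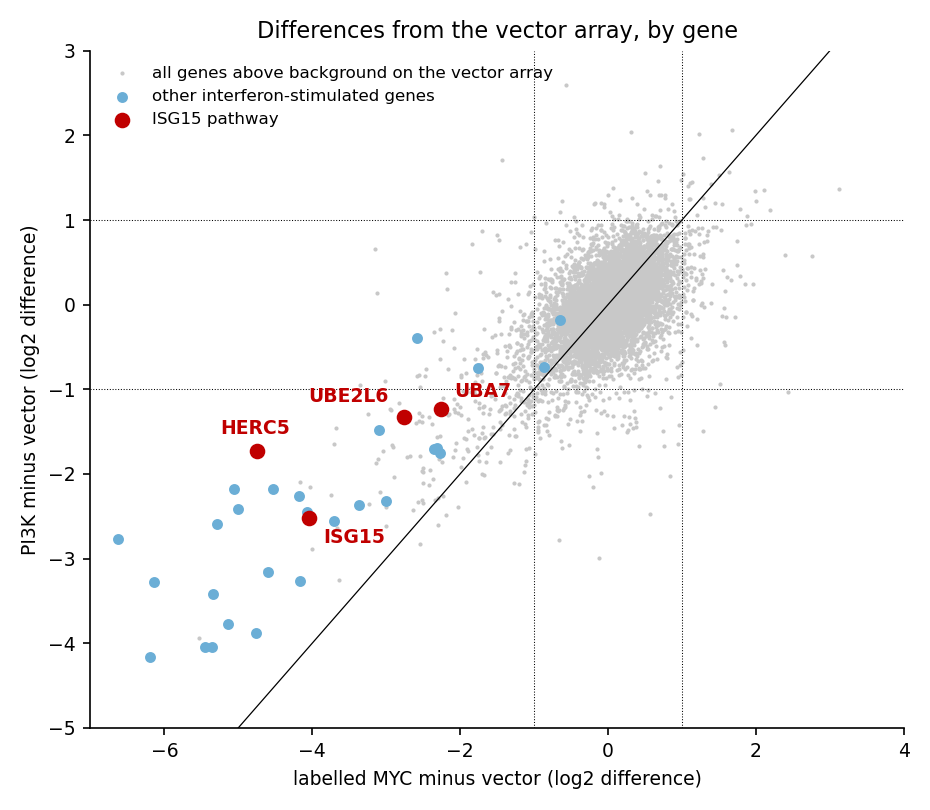
Log2 difference from the vector array with the array labelled MYC (horizontal) and the PI3K array (vertical), 1 point per gene above background on the vector array. Dotted lines mark 2-fold and the solid line equal differences. ISG15 and HERC5 lie among the other interferon-stimulated genes, with HERC5 further above the line, and UBE2L6 lies nearer the centre. Genes below background on an oncogene array, UBA7 among them, are drawn at measured values that have only a bound.

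The array labelled MYC was then set directly against the PI3K array, a comparison that does not use the vector array. HERC5 was 8.08-fold lower on the array labelled MYC, a log2 difference of -3.01, and at least 4 of 7803 other genes were further down. Another 412 genes were too dim to place. ISG15 gave -1.53 (2.88-fold lower) and UBE2L6 gave -1.43 (2.69-fold lower). So 3 of the 3 members compared were at least 2-fold lower, where 2.63% of all genes were, or 1.95% with dim genes at their bound. UBA7 was not above background on either array, so no fold is given. HERC5 stood apart from the other members here: its difference was -1.49 from that of ISG15, where the SD between 2 probes of a gene was 0.26. For UBE2L6 the dimmer probe to NM_004223 gave at least 1.504-fold lower, with a measured difference of -0.68, short of 2-fold. That gene's call therefore rests on the brightest probe. The mean over its probes above background on at least 1 array, which leaves out the third, was -1.05.

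The same steps of other modifier pathways were read from lists chosen by role or by gene symbol. Of 15 other ubiquitin-like modifiers compared, among them SUMO and NEDD8 genes, 0 were at least 2-fold apart on the array labelled MYC (median -0.08) or on the PI3K array (median 0.02). The autophagy modifier GABARAPL1 had the lowest difference on the array labelled MYC at -0.79, and ATG5, the protein that ATG12 is joined to, the highest on the PI3K array at 0.84. With all arrays set to equal medians, GABARAPL1 passed 2-fold on the array labelled MYC at -1.03, and the list medians were -0.32 and -0.19.

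None of 6 other E1-like enzymes passed 2-fold on either array, where UBA7 was at least 1.78-fold lower. The ubiquitin E1 UBA1 had differences of 0.41 on the array labelled MYC and 0.68 with PI3K. NAE1, a subunit of the NEDD8 E1, had 0.47 and 0.48. Of the 6, 3 were below 0 and 3 above on each array, the lowest at -0.40 on the array labelled MYC and -0.33 with PI3K, and the list medians were 0.00 and -0.02. With equal medians UBA1 and NAE1 stayed positive, at 0.17 and 0.47 for UBA1 and 0.23 and 0.27 for NAE1.

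Among 20 other UBE2 enzymes, 1 was at least 2-fold lower on both arrays: UBE2H, a ubiquitin E2, at -1.10 on the array labelled MYC and -1.18 with PI3K. With a pseudocount of 100 it passed on the PI3K array alone. The medians of the list were -0.02 and 0.05. Between the oncogene arrays UBE2C (-1.09), which works with the anaphase-promoting complex, and UBE2T (-1.04), which acts in DNA crosslink repair, were at least 2-fold lower on the array labelled MYC. By its brightest probe UBE2L6 was further down than UBE2H on the array labelled MYC, while on the PI3K array the gap between them was under the technical SD.

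The 3 other HERC ligases compared were all under 2-fold. HERC1 had -0.15 on the array labelled MYC and -0.36 with PI3K, HERC2 had 0.39 and 0.22, and HERC4 had -0.17 and 0.17. None of the other genes with a USP symbol passed 2-fold on the array labelled MYC (24 compared, median 0.19) or on the PI3K array (25 compared, median 0.25). That list was taken by symbol and includes USP6NL, which is not a USP protease. USP14, a proteasome-bound deubiquitinase, had the highest value on the array labelled MYC at 0.87, and USP5, which recycles ubiquitin chains, on the PI3K array at 0.90. These say nothing of USP18, which has no probe named here.

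**Figure D3:**
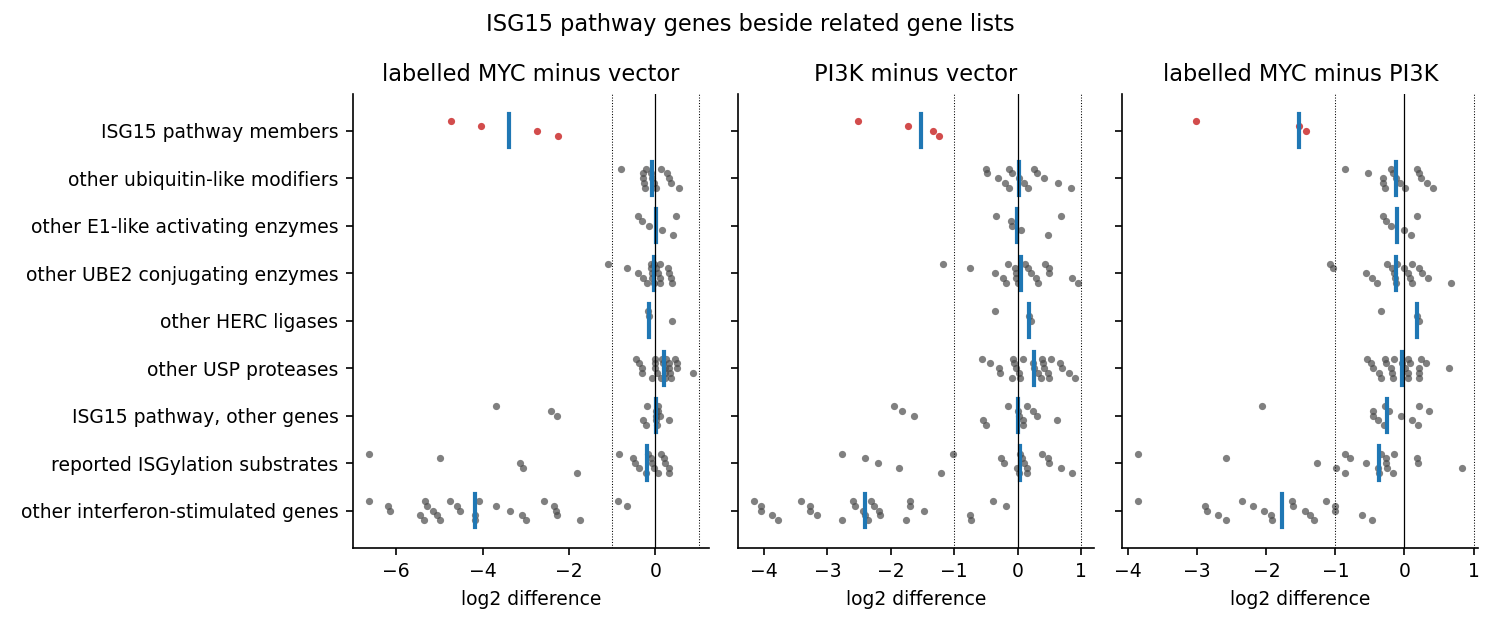
Log2 differences of single genes (points) in 3 comparisons, by list, with the list's median as a blue bar and dotted lines at 2-fold. ISG15 pathway members are red. The other modifiers, E1, UBE2, HERC and USP lists cluster near 0. ISG15, HERC5 and UBE2L6 fall in the range of the other interferon-stimulated genes. Genes below background on an array compared, UBA7 and many of the interferon-stimulated genes among them, are drawn at measured values that have only a bound. UBA7 is therefore not placed among them.

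Genes that act before or beside ISG15 conjugation showed a split. Of 14 compared on the array labelled MYC, 3 were at least 2-fold lower and 0 higher, and the same was true of 14 on the PI3K array. All were transcription factors of the interferon response. IRF9, the DNA-binding subunit of ISGF3, had -3.70 on the array labelled MYC and -1.64 with PI3K. IRF7 had -2.41 and -1.96, and IRF1 had -2.29 and -1.83.

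Of the receptor and kinase genes of the list, IFNAR2 and TYK2 were above background on every array and did not pass 2-fold. IFNAR1 and JAK1 were below background on both oncogene arrays, so they give no fold. IFNAR2, the receptor chain that USP18 binds, had 0.32 on the array labelled MYC and 0.62 with PI3K, and the kinase TYK2 had 0.03 and 0.31. IRF3, the factor that acts ahead of interferon, had -0.22 and 0.15. Enzymes reported to work with ISG15 apart from the core cascade also stayed under 2-fold: the ligase TRIM25 had -0.19 and -0.55, and the ligase ARIH1 -0.30 and -0.50. The list medians were 0.01 for both comparisons, near those over all genes compared.

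Between the oncogene arrays IRF9 was the only gene of that list past 2-fold, at -2.06 (4.18-fold lower on the array labelled MYC). IRF1 and IRF7 had -0.46 and -0.45 there. IRF9 and HERC5 thus both stood further from the PI3K array than ISG15 did.

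Proteins reported to carry ISG15 were read as genes too. Of 20 compared, 5 were at least 2-fold lower on the array labelled MYC and 6 with PI3K, with 0 higher. Those 5 are themselves induced by interferon: the antiviral GTPase MX1, at least 93.8-fold lower, IFIT1, 32.0-fold lower, the RNA sensor IFIH1 at -3.14, the RNA sensor RIGI, at least 5.09-fold lower, and the kinase EIF2AK2 at -1.81. On the PI3K array, in the same order of genes, the differences were -2.77, -2.41, -1.87, -2.21 and -1.02, and the sixth gene was CHMP5, a membrane-sorting subunit, at -1.21. The remaining reported targets were under 2-fold, with medians of the list at -0.20 and 0.03. Among them JAK1 was below background on both oncogene arrays and gives no fold, with measured differences of 0.06 and 0.02. STING1, at -0.84 on the array labelled MYC, passed 2-fold there with all arrays set to equal medians. These are transcript levels, and no ISG15 conjugate was measured.

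The members were then placed among other interferon-stimulated genes. That list had 27 genes compared, with 25 at least 2-fold lower on the array labelled MYC and 23 with PI3K. Only 7 of the 27 were above background on both the array labelled MYC and the vector array, and 20 on both the PI3K and vector arrays. The median was -4.17 on the array labelled MYC, or -3.41 with dim genes at their bound, and -2.41 either way with PI3K. ISG15 at -4.04 lies between these 2 medians for the array labelled MYC. On the array labelled MYC 5 of the 27 were further down than HERC5 even at their bound, 6 were less far down, and 16 were too dim to place. For ISG15 the counts were 9 further down, 5 less far and 13 not placed, and for UBE2L6 they were 19, 3 and 5. On the PI3K array 18 were further down than HERC5, 5 less far and 4 not placed. For ISG15 there the counts were 12, 11 and 4, and for UBE2L6 21, 3 and 3. UBE2L6 thus lay above most of the list on both arrays, and UBA7 cannot be placed. Between the oncogene arrays MX1, at least 13.7-fold lower, was further down than HERC5, 7 of the 20 genes were less far down and 12 were not placed.

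Basal keratins ran in the same order as the members. The summed signal of the 4 basal markers on the array (KRT5, KRT14, KRT15 and ITGA6) was 13069 on the array labelled MYC, 27734 on the PI3K array and 44417 on the vector array. The 4 pan-epithelial markers summed to 5175, 6215 and 6631. KRT14 gave -1.98 on the array labelled MYC and -0.85 with PI3K. KRT15 had the lowest differences of the 4, -2.25 with PI3K and a measured -3.75 on the array labelled MYC, where it was below background. ITGA6 went the other way on both (0.25 and 0.99). The part of these markers in the ISG15 pathway's differences was not tested.

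Likeness was measured as the distance between pairs of log2 differences (array labelled MYC and PI3K array, each against the vector) over 7899 other genes above background on the vector array. The 5 genes nearest to ISG15 were DDX60, OASL, SAMD9, CCN2 and TRIM22, at distances of 0.08 to 0.38. Of these 3 are in the interferon list, and 2 were above background on both oncogene arrays. The nearest to HERC5 were IFIT2, IFI44, SGK1, IFIT1 and OASL, at 0.50 to 0.78, with 4 in the list and 3 above background on both. UBE2L6 was nearest to C1orf116, H19, CPA4, CFB and ISG20, with 0 in the list and 2 above background on both. The list is a chosen set, so a neighbour outside it can still be an interferon-stimulated gene. The other neighbours were below background on an oncogene array, so their distances hold values that have only a bound. No neighbours are given for UBA7, since both of its own differences have only a bound.

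**Figure D4:**
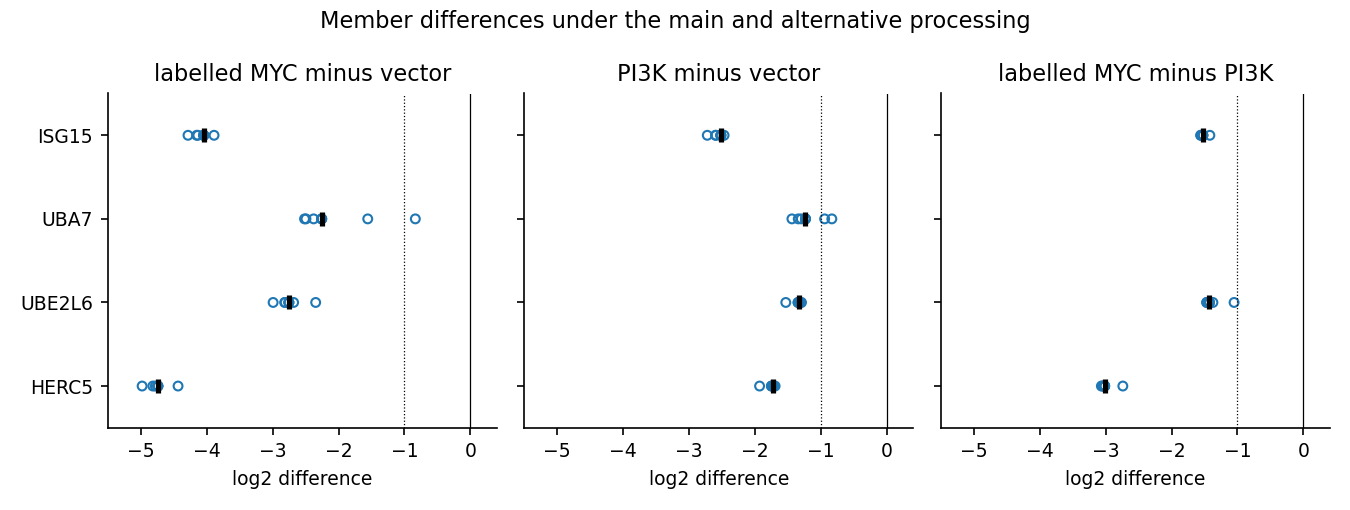
Log2 difference of each member (horizontal) in the 3 comparisons under the processing used here (black bars) and under the alternatives (blue circles). The dotted line is 2-fold lower. ISG15, HERC5 and UBE2L6 stay left of it under every alternative shown, while UBA7 lies right of it at its bound against the vector and, with PI3K, with a pseudocount of 100. UBA7 is not drawn between the oncogene arrays, since it was above background on neither.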

How the data were processed

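RNA of 3 RWPE1 samples was read on Illumina arrays. Trizol-extracted, column-cleaned and DNase-treated RNA was labelled as biotinylated cRNA, per the labels' protocols. The submitters' processing notes name GenomeStudio without a version. Linear signal intensity values were deposited without normalisation, per the file headers. The detection columns deposited beside them were read as a fraction, 1 minus the detection p-value, since high values go with high signals (Spearman's rho across probes 0.981 for the array labelled MYC, 0.976 for the vector array). The scanner table's 2 other columns of per-sample values, the signal and detection values of 1 more array, have a heading that matches no label and were not used. The authors also deposited a table of log2 values. Its differences between the array labelled MYC and the vector array equal signal ratios plus 0.52, the log2 ratio of the 75th percentiles. A constant of unknown origin was taken from each probe, and the PI3K column was assumed to be made alike. Column medians are 0.07 for the array labelled MYC, 0.04 for PI3K and -0.16 for the vector.

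PI3K signals were rebuilt from these log2 differences. Of the probes, 21834 have 1 symbol, 2692 are unnamed here and 0 have several. Symbols were updated by gene ID (21813 matched). A gene took its brightest probe above background on at least 1 array, and was compared where above background on 1 of the arrays compared. For a probe dim on 1 array the fold is a bound: the bright signal divided by the dim array's cut-off, or by the probe's own signal there where that is higher. Named genes were all members, the genes of each list at least 2-fold apart (up to 4) or otherwise the most different 2, and each member's 5 nearest genes (not given for UBA7, dim on both oncogene arrays). EIF2AK2, CHMP5, STING1, IFNAR1, IFNAR2, JAK1, TYK2, IRF3, TRIM25 and ARIH1 fall outside this rule and were chosen after their values were seen. Members and lists were chosen with earlier results of these data known. Alternatives used limma 3.58.1 (R 4.3.3), with normexp at an offset of 50, and 9 were tried in all.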

Additional observations from a re-analysis of the deposited data

How the results depend on the processing

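No paired analysis was possible because each group has 1 array and the result comes from no test. Under the 9 alternatives no member's difference changed sign. Of the members, 3 or 4 were at least 2-fold lower than the vector in each comparison, or 1.5-fold lower where that was the threshold. The share of all genes that passed ranged from 2.34% to 10.5% for the array labelled MYC and from 1.99% to 9.80% for PI3K. UBA7 was the member that did not pass: -0.83 at its bound on both arrays, and -0.94 with a pseudocount of 100 on the PI3K array. With a detection p-value under 0.05, or no detection filter, UBA7 also entered the comparison of the oncogene arrays, at -1.02. Equal medians on all arrays moved the members' median for the array labelled MYC to -3.64. That scaling moved the median of all genes from 0.07 to -0.17 for the array labelled MYC and from 0.05 to -0.15 for PI3K, and the share of calls that were lower from 67.4% to 86.0% and from 77.05% to 90.7%. A 1.5-fold threshold raised the genes called in either direction to 1738 with the array labelled MYC and the vector (577 at 2-fold), 1492 with PI3K and the vector (427) and 1349 between the oncogene arrays (384). ISG15 ranged from -4.28 to -3.89 on the array labelled MYC and from -2.72 to -2.47 on the PI3K array. HERC5 ranged from -4.98 to -4.43 and from -1.93 to -1.70, and UBE2L6 from -2.99 to -2.35 and from -1.53 to -1.30. Signal over background limits UBA7 and the dimmer UBE2L6 probes, and 1 array per group limits every value.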
